A study of Homo sapiens with 60 samples.

Results

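Complement is a set of blood and cell-surface proteins, and 8 of its genes were followed here through A549 cells given herbal extracts: C1R and C1S, SERPING1, C3 and CFB, and CD46, CD55 and CD59. The genes were chosen by name with their levels against vehicle in these same data already known, so the values that chose them are those given below, and their levels, fold changes and calls are a description of these libraries and support nothing beyond it. They are 8 of the 60675 gene identifiers in the count table. The 7 other than SERPING1 passed the low-count filter and are among the 17268 genes tested. All 8 are annotated as protein-coding.

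A549 is an established human lung adenocarcinoma line. Cells were cultured for 24 h with a hot-water extract or with vehicle, and messenger RNA was sequenced from directional libraries. Vehicle had 3 libraries and is labelled as 0.1% DMSO, while the design text of the series gives 2%. The extracts with 3 libraries at each of 3 doses were Citri Unshius Pericarpium, Cimicifugae Rhizoma, Bupleuri Radix, Aconiti Lateralis Radix Preparata, Yijung-tang and Banhasasim-tang, called here by their first word. The low dose was 20 µg/mL, the medium 100 and the high 500; Aconiti had 14.4, 72 and 360 µg/mL, since the design text sets the high dose at the IC20 of an extract where that is lower. Bojungikgi-tang had 1 library per dose. Every group is thus the same unmodified line at the same time. Ethanol extracts and the wortmannin control named in the design text are not analysed here. All sample titles, vehicle included, carry the label Second_BatchB. The first part of the sample codes is called the set label here, and its meaning is not stated in the labels. It is shared by Citri with Cimicifugae, Bupleuri with Aconiti, and Yijung with Banhasasim. Vehicle has a set label of its own, so that set and extract cannot be told apart against vehicle, while doses of an extract share a label. The labels do not say whether replicates were separate cultures, so errors and p-values measure the spread between these libraries, which may be technical.

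Complement works as a cascade of proteases. In the classical pathway C1q recruits the proteases C1r and C1s, which cleave C4 and C2 and so build an enzyme that cleaves C3, and SERPING1, the C1 inhibitor, blocks C1r and C1s. Factor B, the product of CFB, joins cleaved C3 in the convertase of the alternative pathway, which amplifies the cascade. Host cells are shielded by membrane regulators: CD46 is a cofactor for the cleavage of C3b and C4b by factor I, CD55 speeds the decay of convertases, and CD59 blocks assembly of the membrane attack complex. The liver makes most circulating complement, and lung epithelial cells also make C3 and other components. CD55 and CD59 are held at the surface by a GPI anchor, whereas CD46 spans the membrane.

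Total counts per library ran from 17793635 to 30188167, and no pair of replicates agreed within counting noise. Citri medium replicate 1 stood apart in its transcript length balance, the mean log2 CPM of genes with transcripts over 6000 bases minus that of genes under 1500 bases. Its balance was 0.007, against 1.11 to 1.31 in vehicle and 0.47 in the next lowest library. Mitochondrially encoded genes took 16.5% to 18.95% of counts at Aconiti high and 7.91% to 8.54% in vehicle. All 6 markers of lung epithelial carcinoma cells passed the filter, with a summed level of 8571 to 9047 CPM (counts scaled to library size) in vehicle. No hepatocyte marker of 4 (ALB, APOA1, APOC3, TTR) passed. Of 6 leukocyte markers 2 passed (CD14 and CD68), PTPRC and LYZ were among those that did not, and CD3E was at 0 in every library. Of 6 fibroblast and endothelial markers, COL1A1 and LUM passed.

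Per kilobase of exon, the vehicle levels of the 8 genes were far apart. CD46 stood at 22.4 ± 0.48 (SD, n = 3) CPM per kb and CD59 at 15.4 ± 0.62. C1S followed at 9.13 ± 0.12, CD55 at 5.23 ± 0.36, C1R at 3.82 ± 0.19 and C3 at 3.74 ± 0.19. CFB was at 0.103 ± 0.035 CPM per kb and SERPING1 at 0.0568 ± 0.028. The membrane regulators CD46 and CD59 thus had the highest levels per length in vehicle, and the factor B and C1 inhibitor genes the lowest.

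**Figure D1:**
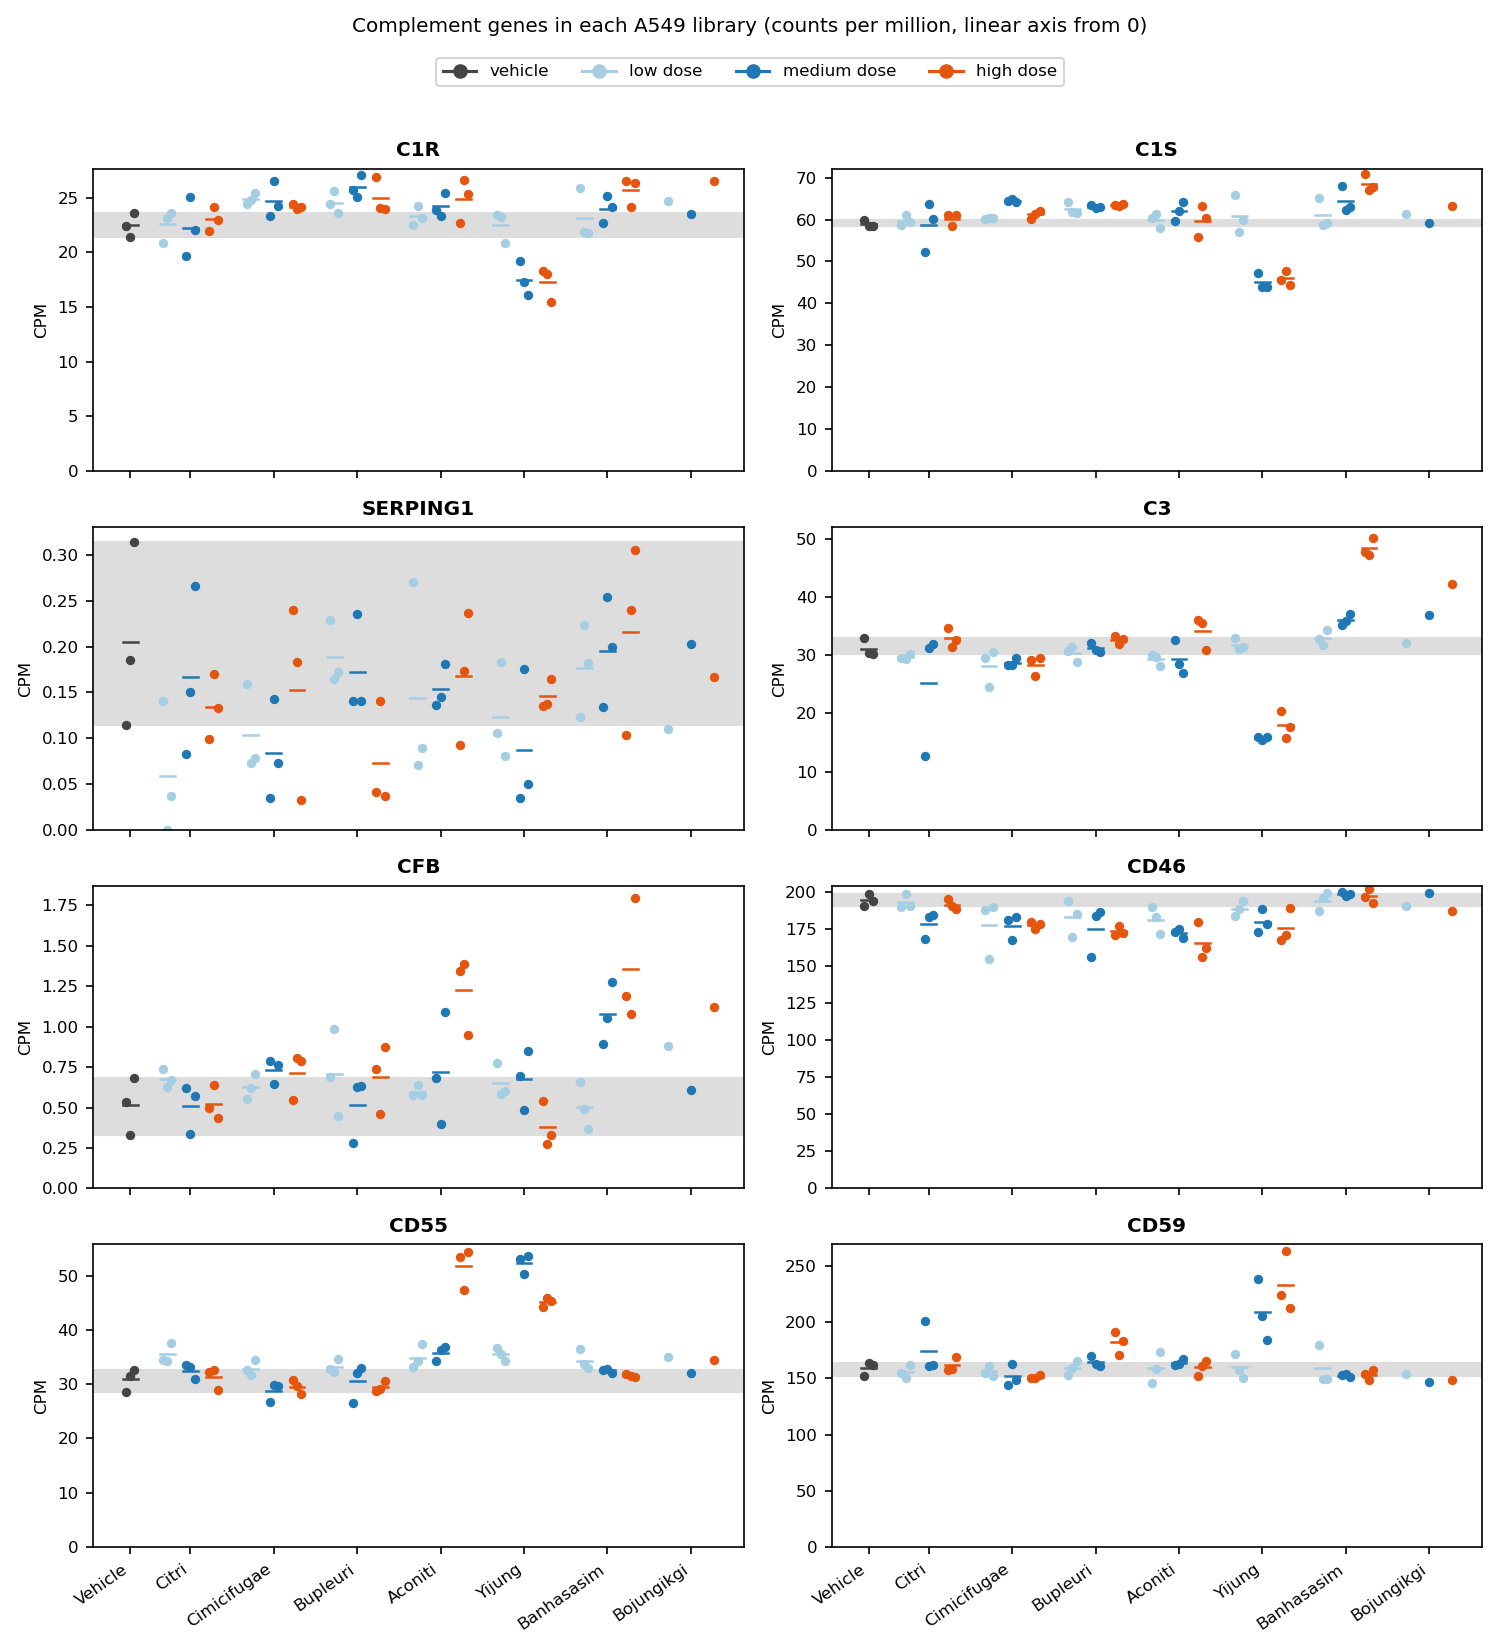
Level of each of the 8 genes in every library, in CPM on a linear axis from 0; points are libraries, short lines are means of 3, colours are doses and the grey band is the range of the 3 vehicle libraries. C1R, C1S and C3 sit below the band at Yijung medium and high, CD55 sits above it there and at Aconiti high, and C3 and CFB sit above it at Banhasasim high.

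The pattern across the 18 doses of 6 extracts was uneven. A gene is called here where edgeR's quasi-likelihood test, adjusted by Benjamini-Hochberg over all 17268 genes, gave an adjusted p under 0.05. Against vehicle, 5 of the 7 genes were called at Yijung high, where 7.09% of all genes tested were called, and 5 at Yijung medium, where 7.85% were. At Aconiti high 3 genes were called, where 32.7% of all genes were, and at Banhasasim high 2, where 0.185% were. In the other 14 comparisons with vehicle 0 of the 7 were called. All genes were called there at shares of 0.00579%, 0.0174% and 0.0463% for Citri low, medium and high, 0.0116%, 0.0347% and 1.96% for Cimicifugae, 0%, 0% and 0.712% for Bupleuri, 0.0695% and 2.29% for Aconiti low and medium, 0.0116% for Yijung low, and 0% for Banhasasim low and medium. All 18 comparisons use the same 3 vehicle libraries.

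**Figure D2:**
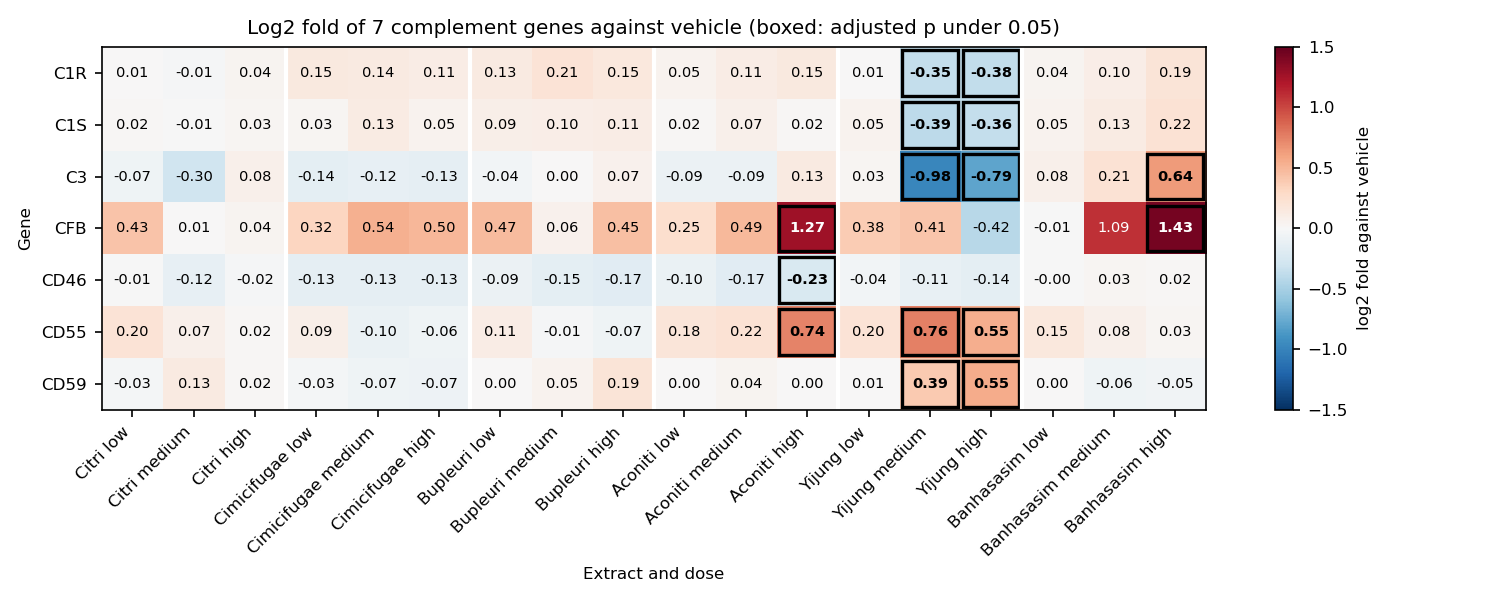
Log2 fold against vehicle of the 7 genes that passed the filter (rows) at 3 doses of 6 extracts (columns), from red for higher to blue for lower, with called genes boxed. Yijung medium and high show C1R, C1S and C3 lower with CD55 and CD59 higher, and no box lies in the Citri, Cimicifugae and Bupleuri columns.

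C1R and C1S, the paired proteases of the C1 complex, fell at the medium and high doses of Yijung and were called at no other dose against vehicle. Both lie on chromosome 12 in GRCh38, C1R (ENSG00000159403) at 7080199 to 7092607 on the minus strand and C1S (ENSG00000182326) at 6988259 to 7071032 on the plus strand. C1R overlaps C1RL on its own strand, and C1S overlaps EMG1 and a pseudogene on its own strand and LPCAT3 on the other, so that reads in shared stretches could be assigned to either. C1R was at 22.5, 21.4 and 23.6 CPM in vehicle, at 19.2, 17.3 and 16.1 at Yijung medium and at 18.3, 18.02 and 15.5 at Yijung high. The 6 treated libraries lay below all 3 vehicle libraries. C1R fell with a log2 fold of -0.35 ± 0.080 (SE) at the medium dose and -0.38 ± 0.080 at the high dose.

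C1S was at 59.9, 58.5 and 58.5 CPM in vehicle, at 47.3, 43.9 and 43.96 at Yijung medium and at 45.7, 47.6 and 44.5 at Yijung high. Its groups did not overlap either. C1S fell with a log2 fold of -0.39 ± 0.054 at the medium dose and -0.36 ± 0.054 at the high dose, close in size to C1R. At Yijung low, C1R (20.9 to 23.4 CPM) and C1S (57.1 to 65.9 CPM) overlapped vehicle, with log2 folds of 0.01 ± 0.079 and 0.05 ± 0.054.

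Outside Yijung medium and high, some libraries also lay below vehicle in C1R or C1S. Among them, Citri medium replicate 1 was at 19.65 CPM of C1R and 52.3 CPM of C1S, and Aconiti high replicate 1 at 55.8 CPM of C1S. Of the 18 groups, C1R lay wholly above vehicle in 6 and C1S in 8, and neither was called higher in any. Both genes lay wholly below vehicle in 2 groups, Yijung medium and high. C1R overlapped vehicle in 10 groups and C1S in 8. The highest C1S mean was that of Banhasasim high, with libraries at 70.8, 67.0 and 67.8 CPM. C1S had a log2 fold of 0.22 ± 0.054 there with an edgeR adjusted p of 0.0892. It was called in 6 of the 14 alternative analyses. C1R was there at 26.6, 24.2 and 26.4 CPM, with a log2 fold of 0.19 ± 0.079. Ordered by their means, neighbouring groups of C1R overlapped except between Yijung medium and Citri medium, and those of C1S except between Yijung high and Citri medium and between Cimicifugae medium and Banhasasim high.

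RefSeq start-site windows of 300 bases, from 250 before to 50 after the start, were found for 5 of the 8 genes (CFB, C1R, CD46, CD55 and CD59) in GRCh38.p14. C1R has 2 such windows, and the more upstream one is shown as an example of a gene that fell at Yijung, at chr12:7092396-7092695 on the minus strand, 5′ to 3′ along the gene. Capitals mark the match on the reverse strand to TTGCNNAA, a C/EBP motif, that lies from base -106.

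C1R: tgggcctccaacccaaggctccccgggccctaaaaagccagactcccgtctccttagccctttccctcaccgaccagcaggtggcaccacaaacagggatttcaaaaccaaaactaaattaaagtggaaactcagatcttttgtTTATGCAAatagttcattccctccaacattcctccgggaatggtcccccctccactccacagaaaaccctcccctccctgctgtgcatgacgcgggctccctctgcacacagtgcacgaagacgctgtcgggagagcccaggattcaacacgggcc

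Motifs were searched on both strands, and some can overlap. Of the 35116 windows in the table, 7.66% held TTCNNNGAA, the gamma-activated site bound by STAT proteins. A core of the interferon-stimulated response element, TTTCNNTTT, was in 10.48%, and the kappa-B consensus was in 11.3%. The C/EBP motif TTGCNNAA was in 10.46%. The AP-1 motif TGANTCA was in 7.71%. The cAMP response element TGACGTCA was in 1.85%. The GC box GGGCGG was in 44.95%. The TATA box, TATAAA, was in 11.5%. A match is a string of letters in the window and was not tested for binding.

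SERPING1 (ENSG00000149131, chromosome 11, 57597387 to 57614853, plus strand), the inhibitor of C1R and C1S, was barely detected. It had 0 to 8 counts in a library and 219 counts in all 60 libraries, with fewer than 3 counts in 17 of them. In CPM it was at 0.114, 0.185 and 0.315 in vehicle and at most 0.306 in any treated library. A count of 3, set here as the floor, was worth 0.0987 to 0.165 CPM. It was not tested.

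C3 moved in opposite directions in the paired extracts of the Yijung and Banhasasim set. C3 (ENSG00000125730) lies on chromosome 19 at 6677704 to 6730562 on the minus strand and encodes the protein on which all complement pathways converge; it overlaps GPR108 on the same strand. In vehicle it was at 32.9, 30.3 and 30.2 CPM. At Yijung medium it was at 16.0, 15.5 and 15.9 CPM and at Yijung high at 20.5, 15.8 and 17.8 CPM, with every library under every vehicle library. The log2 folds were -0.98 ± 0.15 at the medium dose and -0.79 ± 0.15 at the high dose, while Yijung low overlapped vehicle at 0.03 ± 0.14.

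With Banhasasim the mean of C3 was 32.98 ± 1.33 (SD, n = 3) CPM at the low, 36.1 ± 0.90 at the medium and 48.4 ± 1.52 at the high dose. The high-dose libraries, at 47.8, 47.3 and 50.1 CPM, were the highest of the 57 and overlapped neither vehicle nor the medium dose. C3 rose there with a log2 fold of 0.64 ± 0.14 and an edgeR adjusted p of 0.031. The call was lost on leaving out any single library of the comparison, with adjusted p from 0.104 to 0.237.

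Citri medium replicate 1, the library that stands apart, was at 12.6 CPM of C3, against 31.2 and 31.9 CPM in the other Citri medium libraries, and it entered the shared estimate of C3's spread. Without it in the fit, C3 at Banhasasim high had a log2 fold of 0.64 ± 0.070 and an edgeR adjusted p of 6.15e-08. Under that fit C3 was also called at Banhasasim high against low, with a log2 fold of 0.56 and an adjusted p of 2.18e-06, where the fit with it gave 0.55 ± 0.14 and 0.13. At Aconiti high C3 was at 36.1, 35.5 and 30.8 CPM and overlapped vehicle, with a log2 fold of 0.13 ± 0.14 that was 0.33 ± 0.10 and called once the length balance was adjusted for. Of neighbouring groups in the order of C3, only Banhasasim medium and high did not overlap. The overlap of Yijung high, at 15.8 to 20.5 CPM, with Citri medium rested on Citri medium replicate 1, at 12.6 CPM.

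CFB, which encodes factor B, rose at Aconiti high and Banhasasim high from a low level. It lies on chromosome 6 at 31945650 to 31952084 on the plus strand (ENSG00000243649) and overlaps C2 and a readthrough gene on the same strand, so the assignment of its few reads is uncertain. A library held 6 to 47 counts of it. Vehicle was at 0.534, 0.333 and 0.682 CPM, Aconiti high at 1.35, 1.39 and 0.946 CPM, and Banhasasim high at 1.19, 1.08 and 1.80 CPM. Neither group overlapped vehicle. The log2 folds were 1.27 ± 0.32 and 1.43 ± 0.31, wide for a called gene, with edgeR adjusted p of 0.00157 and 0.0266.

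At Banhasasim medium CFB also lay above vehicle, at 0.892, 1.06 and 1.28 CPM, without being called, at a log2 fold of 1.09 ± 0.32. The call at Banhasasim high was lost without vehicle replicate 1 or 2 or treated replicate 1 or 3, with adjusted p from 0.0528 to 0.37. With no low-count filter it was 0.0517. At Yijung high, CFB was at 0.54, 0.274 and 0.33 CPM, overlapping vehicle.

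The CFB window is printed because it held 4 of the motifs searched, at chr6:31945845-31946144 on the plus strand. Capitals mark, from the 5′ end, the interferon element core from base -140, the kappa-B consensus from -112, the gamma-activated site from -92 and the TATA box from -30.

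CFB: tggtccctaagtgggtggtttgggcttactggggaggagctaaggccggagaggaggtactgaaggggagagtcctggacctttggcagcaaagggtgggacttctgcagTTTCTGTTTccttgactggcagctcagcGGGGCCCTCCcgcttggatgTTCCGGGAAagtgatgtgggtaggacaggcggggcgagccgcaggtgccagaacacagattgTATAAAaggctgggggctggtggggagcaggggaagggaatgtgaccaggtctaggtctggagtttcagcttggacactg

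CD55 was the gene of the 8 that was called in the most doses in the upward direction, at Aconiti high and at Yijung medium and high. It encodes decay-accelerating factor and lies on chromosome 1 at 207321376 to 207386804 on the plus strand (ENSG00000196352). Vehicle was at 28.5, 31.6 and 32.6 CPM. Aconiti high was at 53.5, 47.3 and 54.4 CPM, Yijung medium at 53.0, 50.2 and 53.5 CPM, and Yijung high at 44.3, 45.9 and 45.3 CPM. The 9 libraries were all above the other 48 of the replicated groups, of which the highest was at 37.6 CPM. CD55 rose with log2 folds of 0.74 ± 0.066, 0.76 ± 0.066 and 0.55 ± 0.066.

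With Aconiti the mean rose from 34.9 ± 2.17 CPM at the low dose and 35.8 ± 1.35 at the medium dose to 51.7 ± 3.85 at the high dose. With Yijung the medium dose was highest, at 52.3 ± 1.77 against 35.5 ± 1.25 at the low and 45.2 ± 0.80 at the high dose. High and medium Yijung libraries did not overlap, and their difference of -0.21 ± 0.065 log2 had an edgeR adjusted p of 0.131. It was called with DESeq2, at an adjusted p of 0.0463, and in a fit that included the length balance, at 0.0269. The low doses of Citri, Aconiti, Yijung and Banhasasim also lay above all 3 vehicle libraries, with log2 folds of 0.15 to 0.20 and none called. Aconiti medium lay above them too, at a log2 fold of 0.22 ± 0.066 and an edgeR adjusted p of 0.0753. In the fit that included the length balance it was called, at 0.0411.

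The CD55 window lies at chr1:207321428-207321727 on the plus strand. Capitals mark its only match, the GC box on the reverse strand from base -46.

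CD55: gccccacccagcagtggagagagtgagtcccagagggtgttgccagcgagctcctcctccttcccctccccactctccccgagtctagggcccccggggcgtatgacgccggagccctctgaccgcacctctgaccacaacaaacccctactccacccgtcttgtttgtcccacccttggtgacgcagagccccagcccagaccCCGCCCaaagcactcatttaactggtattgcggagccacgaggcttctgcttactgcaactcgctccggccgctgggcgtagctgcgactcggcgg

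CD59, the other GPI-anchored regulator, rose at Yijung medium and high and not at Aconiti high. It lies on chromosome 11 at 33703010 to 33736491 on the minus strand (ENSG00000085063). Vehicle was at 152.0, 164.1 and 161.9 CPM, Yijung medium at 238.6, 205.4 and 184.1 CPM, and Yijung high at 224.4, 263.3 and 212.8 CPM. All 6 Yijung libraries lay above vehicle, and they spread more widely than those of CD55. The log2 folds were 0.39 ± 0.080 and 0.55 ± 0.081. At Aconiti high CD59 was at 152.4, 161.5 and 165.4 CPM, a log2 fold of 0.004 ± 0.081 with a 95% interval of -0.16 to 0.17. In the fit that adjusts for the length balance it was -0.13 ± 0.048 and called, at an edgeR adjusted p of 0.0312.

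Within the Yijung groups CD59 was highest in the libraries of lowest length balance: replicate 2 of the high dose, at 263.3 CPM, had a balance of 0.728, and replicate 1 of the medium dose, at 238.6 CPM, had 0.873. The other 4 had balances of 1.12 to 1.31, in the range of vehicle, and lay at 184.1 to 224.4 CPM, above every vehicle library. Whether the balance set the level of CD59 was not tested. With the balance as a covariate the log2 folds of CD59 were 0.36 ± 0.046 and 0.49 ± 0.046, both called. Bupleuri high also lay above vehicle, at 191.6, 171.3 and 183.3 CPM, and was not called (0.19 log2, edgeR adjusted p of 0.364).

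CD59 has 4 RefSeq windows, and the most upstream, at chr11:33736430-33736729 on the minus strand, is shown beside that of CD55 because both genes rose at Yijung. Capitals mark the gamma-activated site from base -128 and GC boxes from -4 and from 10.

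CD59: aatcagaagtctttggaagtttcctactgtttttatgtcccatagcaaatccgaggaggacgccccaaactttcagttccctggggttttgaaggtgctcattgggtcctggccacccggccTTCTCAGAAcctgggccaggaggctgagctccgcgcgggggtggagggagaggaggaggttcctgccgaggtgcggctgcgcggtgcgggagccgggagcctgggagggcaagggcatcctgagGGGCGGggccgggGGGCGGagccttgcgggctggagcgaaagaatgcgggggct

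The CD55 and CD59 windows shared a GC box, a motif in 44.95% of all windows, and no other motif of the 8.

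CD46, the cofactor for factor I and the gene of the 8 with the most counts, had the narrowest span of the 7 tested. It lies on chromosome 1 at 207752057 to 207795513 on the plus strand (ENSG00000117335). Over 60 libraries it ranged from 155.1 to 202.1 CPM, a 1.3-fold span, against 3.97-fold for C3 and 2.05-fold for CD55. Vehicle was at 190.6, 198.9 and 194.5 CPM, and Aconiti high at 179.8, 156.0 and 162.3 CPM, below vehicle in each library. CD46 fell there with a log2 fold of -0.23 ± 0.063 and an edgeR adjusted p of 0.00429. The call was lost on the 6 libraries alone, at 0.0603, and without Aconiti high replicate 2, at 0.0738.

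CD46 was low in several libraries of low length balance. Aconiti high replicates 2 and 3, the low ones, had balances of 0.589 and 0.64, and replicate 1, at 179.8 CPM, had 1.21. The lowest library of all for CD46, Cimicifugae low replicate 2 at 155.1 CPM, had a balance of 0.47. Citri medium replicate 1, at a balance of 0.007, was at 168.7 CPM. Yijung high replicate 1, at a balance of 1.12, was at 167.9 CPM, and replicate 2, at 0.728, was at 171.5 CPM. Whether the balance set the level of CD46 was not tested. With the balance as a covariate the fold at Aconiti high was -0.14 ± 0.042, still called. Of the 18 groups compared with vehicle, CD46 lay wholly below vehicle in 11, overlapped it in 7 and lay above it in 0. Aconiti high was the only one in which it was called. On the 6 libraries alone CD46 was called lower at Cimicifugae high, Bupleuri high and Aconiti medium, at edgeR adjusted p of 0.0192, 0.0209 and 0.0342.

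**Figure D3:**
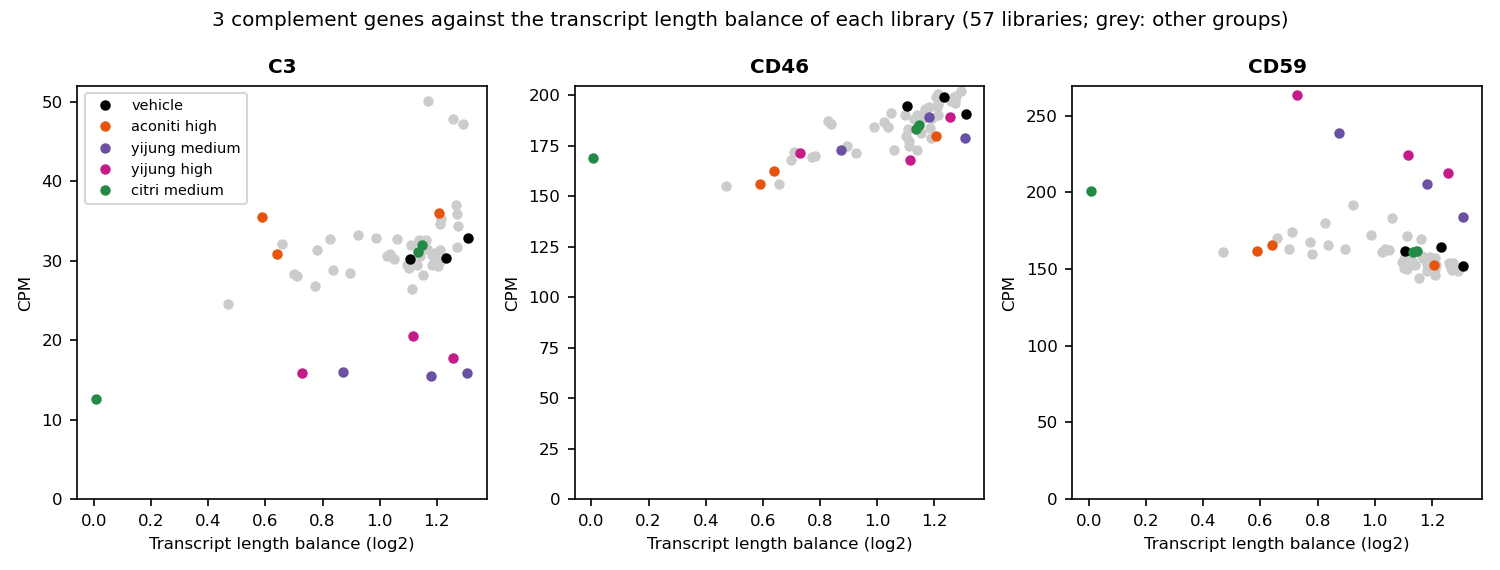
Level in CPM (linear axis from 0) of C3, CD46 and CD59 against the transcript length balance (log2) of each of 57 libraries, with 5 groups coloured and the others grey. CD46 is low in several libraries of low balance and is not lowest in the one farthest left. The 6 Yijung libraries lie above vehicle for CD59 and below it for C3. Citri medium replicate 1 lies at the far left.

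Comparisons between doses, which share a set label, gave the same genes at Yijung. High against low dose, where 4.93% of all genes were called, 5 of 7 genes were called: C3 at -0.82 ± 0.15 log2, C1R at -0.38 ± 0.080, C1S at -0.41 ± 0.054, CD55 at 0.35 ± 0.065 and CD59 at 0.55 ± 0.080. High against medium dose of Yijung, 0 of 7 were called, where 1.08% of all genes were. The 95% interval of that difference was -0.12 to 0.49 log2 for C3, -0.19 to 0.14 for C1R and -0.08 to 0.14 for C1S.

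For Aconiti high against low, where 22.7% of all genes were called, 2 genes were called, CFB at 1.02 ± 0.30 log2 and CD55 at 0.57 ± 0.065. Against the medium dose, where 12.5% were called, CD55 alone passed, at 0.53 ± 0.065. For Banhasasim high against low, where 0.127% of all genes were called, CFB was called at 1.44 ± 0.31 log2, and that call was lost in 7 of 14 alternative analyses. In Banhasasim high against medium, 0 were called, where 0.0579% of all genes were. Of the 6 high-against-low and high-against-medium comparisons of Citri, Cimicifugae and Bupleuri, none had a called gene of the 7. All genes were called there at 0.0232% and 0.0174% for Citri, 1.34% and 0.226% for Cimicifugae, and 0.353% and 0.11% for Bupleuri.

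Extracts of a set were compared directly at their high doses. Yijung against Banhasasim, both at 500 µg/mL, differed in 6 of the 7 genes, where 4.79% of all genes were called. C3 was at -1.43 ± 0.15 log2, CFB at -1.85 ± 0.33, C1R at -0.57 ± 0.080 and C1S at -0.58 ± 0.054, all lower with Yijung. CD55 was at 0.52 ± 0.066 and CD59 at 0.61 ± 0.081, both higher with Yijung, and CD46 was not called at -0.16 ± 0.063. The secreted components and the GPI-anchored regulators thus differed in opposite directions between these extracts.

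Aconiti at 360 µg/mL and Bupleuri at 500 µg/mL differ in dose. Their difference was called for CD55, at 0.81 ± 0.066 log2, and for CFB, at 0.82 ± 0.30, where 23.1% of all genes were called. The CFB call was lost in 6 of 14 alternative analyses. Citri against Cimicifugae had 0 of 7 genes called, where 0.689% of all genes were.

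**Figure D4:**
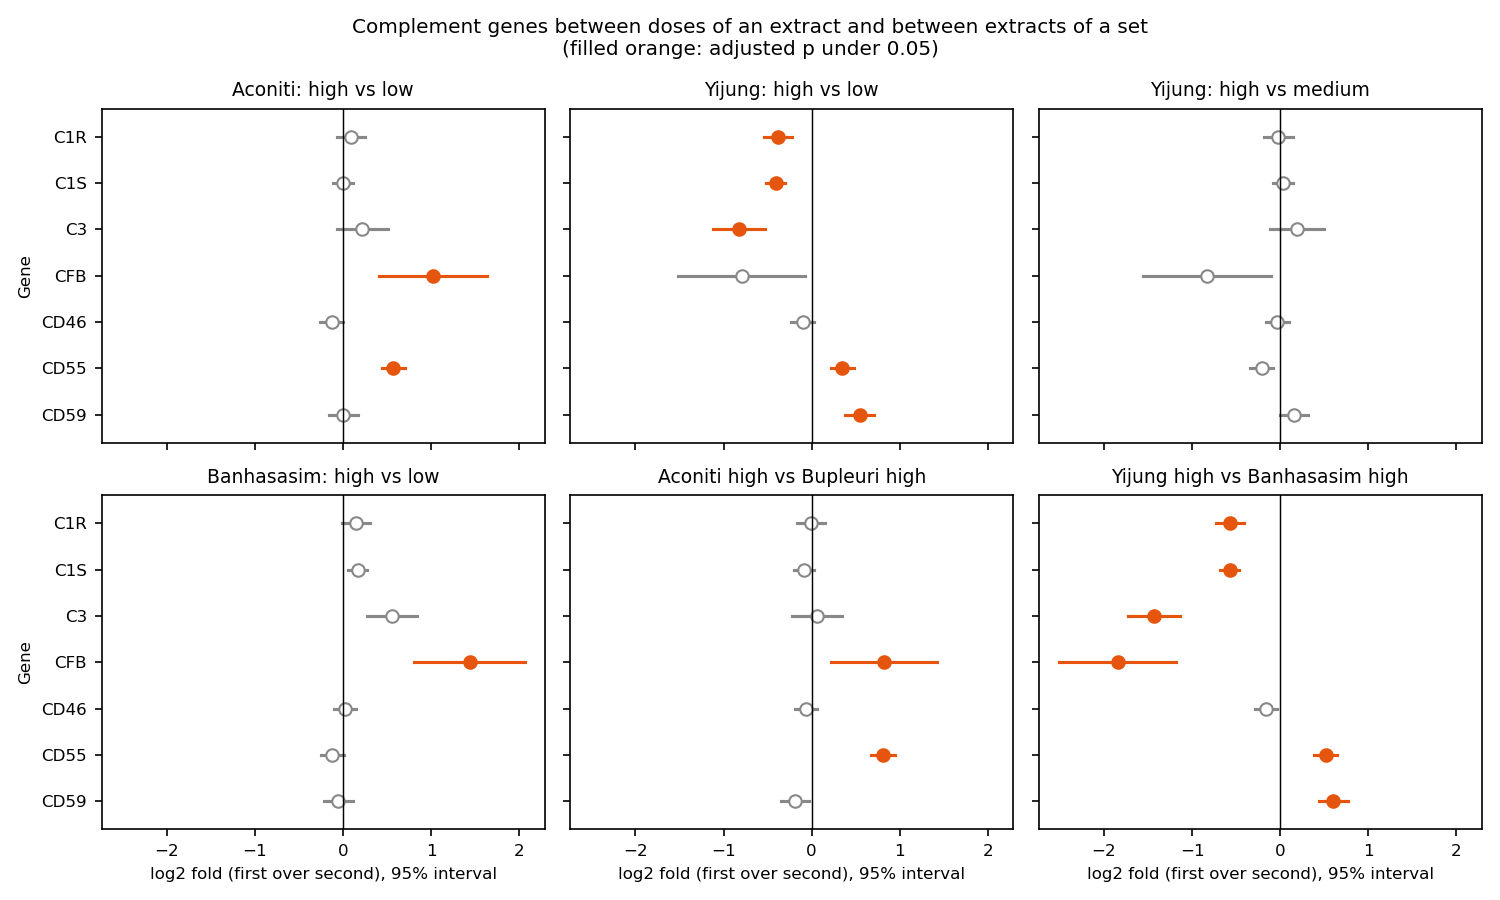
Log2 fold of the 7 genes with 95% intervals between doses of an extract and between the high doses of extracts that share a set label; filled points are called. In the Yijung against Banhasasim panel C1R, C1S, C3 and CFB lie left of 0 and CD55 and CD59 right of it, and in the Yijung high against medium panel no point is filled.

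Across the 19 group means C1R and C1S had a Pearson r of 0.951, C3 and C1S 0.903 and C3 and C1R 0.836. CD59 against C1S had -0.863, CD55 against C1S -0.733, and CD55 with CD59 0.582. The values for CD46 were smaller, at 0.224 with C1S, -0.012 with C1R, -0.32 with CD55 and -0.322 with CD59. CFB had 0.465 with C1S and 0.088 with CD55. These points share libraries and scaling. Yijung medium and high lay apart from the other group means, at 45.04 and 45.94 CPM of C1S against 58.71 to 68.52 CPM. For C1R they were at 17.52 and 17.27 CPM against 22.25 to 25.95 CPM. How far the correlations and the likeness below rest on Yijung medium and high was not tested. Among 10673 genes with a mean of at least 5 CPM, C1S was the gene most like C1R and most like C3, and C1R the most like C1S. Next for C1R came PRKCD (0.925), a protein kinase C, and PTK2B (0.92), a focal adhesion family kinase; for C1S they were PTK2B (0.911) and PRKCD (0.907). For C3 they were BDKRB2 (0.871), a bradykinin receptor, and TIGD2 (0.867).

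CD55 was most like INA (0.954), an intermediate filament gene, EPHA2 (0.942), an ephrin receptor, and ZCCHC4 (0.94). CD59 was most like ANXA5 (0.912), annexin A5, FAM136A (0.901) and TRNP1 (0.895). CD46 was most like SEC24A (0.949), a COPII coat component, ROBO1 (0.924) and GALNT4 (0.909). For CFB the closest were PUS10 (0.85), WDR27 (0.793) and BLOC1S5 (0.731). The order of likeness is a description over 19 points, and it was not repeated without Yijung medium and high.

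Bojungikgi, with 1 library per dose and no test, had C3 at 32.2 CPM at the low, 37.0 at the medium and 42.2 at the high dose. The last is 0.43 above the vehicle mean on the log2(CPM + 1) scale, where the vehicle SD was 0.069, and lies above all vehicle libraries. C1R at 26.5 CPM, C1S at 63.3 CPM and CFB at 1.12 CPM were also above all vehicle libraries at the high dose. CD55 was at 34.5 CPM, above vehicle, and CD59 at 148.2 CPM, below it.

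Of 54 other complement genes, 26 passed the filter. At Yijung medium 1 rose and 5 fell, where 7.85% of all genes were called, and at Yijung high 1 rose and 2 fell, where 7.09% were. At Aconiti high 5 rose and 2 fell, where 32.7% of all genes were called, and at Banhasasim high 0 were called, where 0.185% were. Their median log2 folds were -0.225, -0.20, 0.015 and 0.009, where those of all genes were 0.00, 0.00, -0.01 and -0.01. Elsewhere THBD was called, higher at Aconiti medium, where 2.29% of all genes were called, and lower at Cimicifugae high, where 1.96% were, and the other 12 comparisons with vehicle had 0. Fewer cells that express a gene and less of its RNA per cell cannot be told apart in such bulk libraries.

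Fluid-phase regulators, of which 9 of 14 passed, had 4 called lower at Yijung medium, 2 at Yijung high and 1 at Aconiti high, and 0 called higher. All genes were called there at 7.85%, 7.09% and 32.7%. VTN, vitronectin, which binds terminal complexes, fell at Yijung high from 19.1 to 11.2 CPM (-0.77 ± 0.13). CPN1, a subunit of the carboxypeptidase that trims anaphylatoxins, fell at Yijung medium from 1.09 to 0.508 CPM (-1.07 ± 0.26). CFI and C4BPA also fell there, at under 1 CPM, and are named after their values were seen. The median of this list was -0.83 at Yijung medium, -0.52 at Yijung high and -0.10 at Aconiti high.

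In the initiation and amplification list, 8 of 19 passed, and at Aconiti high 4 rose and 0 fell, where 32.7% of all genes were called. C1RL, a protease like C1R, rose from 21.0 to 28.6 CPM (0.45 ± 0.084), CFD, factor D, from 8.92 to 13.6 CPM (0.62 ± 0.17), and C4A from 0.765 to 1.62 CPM (1.07 ± 0.30). C4A and C4B are near-identical, so reads of one may be counted for the other. COLEC11, at 0.407 CPM and named after its values were seen, was the other. At Yijung medium and high 0 of the 8 were called, where 7.85% and 7.09% of all genes were. C1QB, C1QC, MBL2, FCN1, FCN2 and COLEC10 were at 0 in every library, and 0 of 6 terminal components passed.

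Among membrane regulators and receptors, 9 of 15 passed. THBD, thrombomodulin, which aids inactivation of C3b, went from 34.99 CPM in vehicle to 59.97 CPM at Aconiti high (0.78 ± 0.060), 52.5 CPM at Yijung medium (0.58 ± 0.060) and 50.7 CPM at Yijung high (0.53 ± 0.060). It was also higher at Aconiti medium (0.35 ± 0.060) and lower at Cimicifugae high (-0.38 ± 0.061). CALR, calreticulin, fell at Aconiti high from 471.4 to 376.8 CPM (-0.32 ± 0.090) and at Yijung medium to 375.5 CPM (-0.33 ± 0.090).

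**Figure D5:**
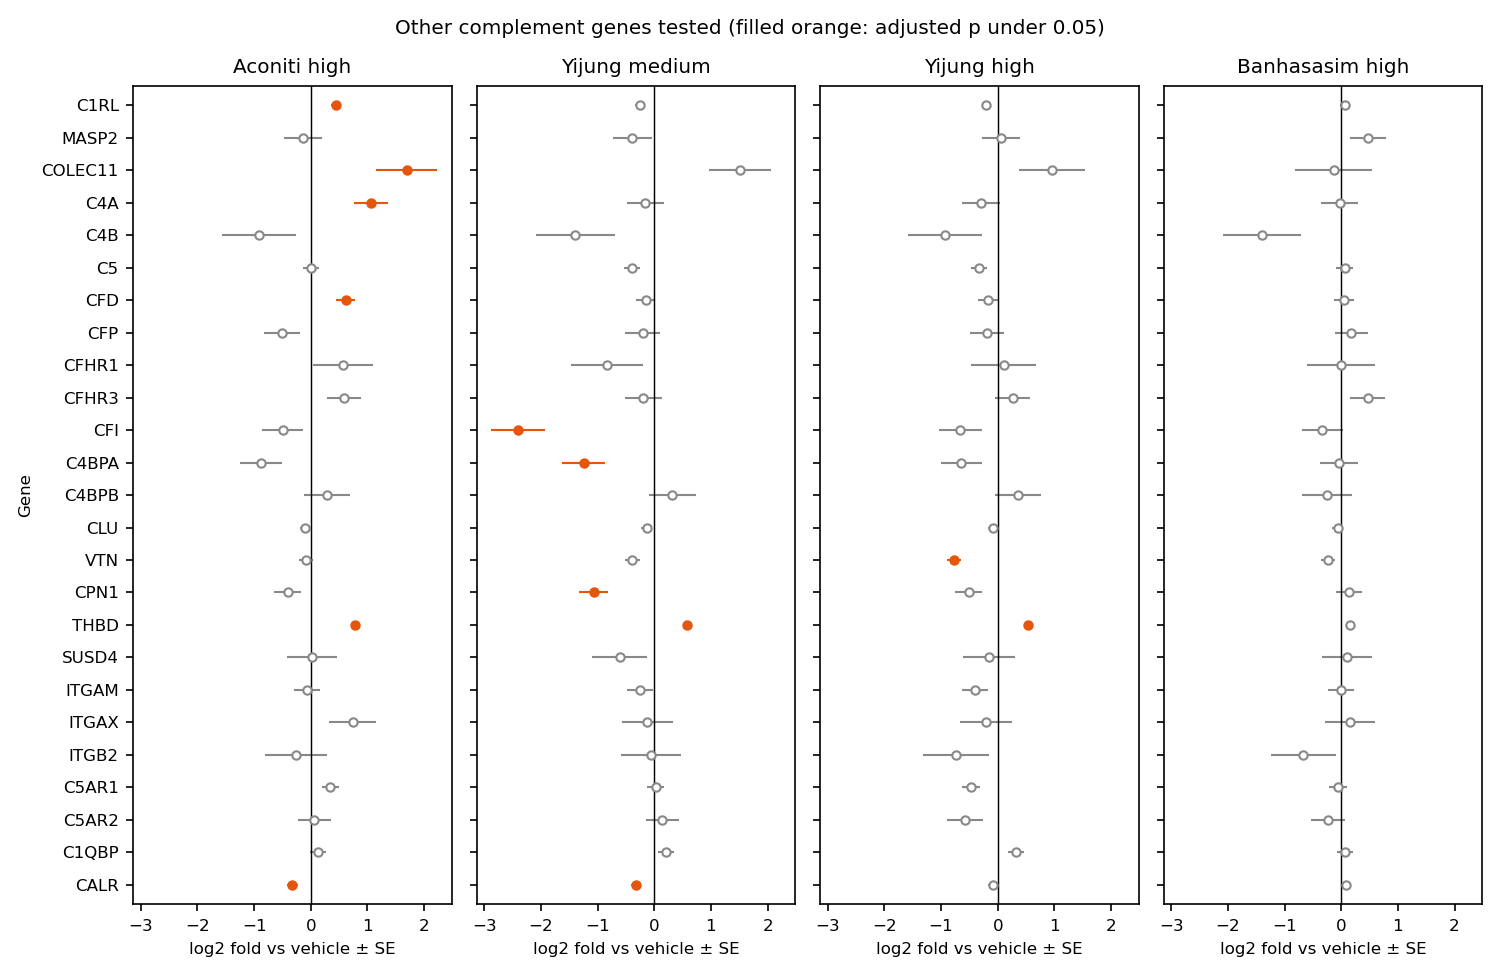
Log2 fold against vehicle, with its SE, of 25 of the 26 other complement genes that passed the filter at Aconiti high, Yijung medium, Yijung high and Banhasasim high; filled points are called. THBD lies right of 0 in the first 3 panels, and the Banhasasim panel has no filled point.

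Acute-phase proteins are made chiefly by the liver in inflammation. Of 20 genes 10 passed, and at both Yijung medium and Yijung high 0 rose and 4 fell, at Aconiti high 2 rose and 4 fell. All genes were called there at 7.85%, 7.09% and 32.7%. The 3 fibrinogen chains were called in each of these groups. FGB fell from 165.0 CPM in vehicle to 86.6 CPM at Yijung medium (-0.93 ± 0.065), 74.1 CPM at Yijung high (-1.15 ± 0.065) and 80.4 CPM at Aconiti high (-1.04 ± 0.065). FGA was at 147.3, 92.9, 80.7 and 82.5 CPM in these groups and FGG, named at Aconiti high after its values were seen, at 82.4, 49.4, 43.1 and 53.5 CPM. Single chains were also lower elsewhere: FGA at Citri high (-0.36 ± 0.071), and FGB at Bupleuri high (-0.32 ± 0.064) and Aconiti medium (-0.25 ± 0.064). CP, ceruloplasmin, fell at Yijung high (-0.76 ± 0.23) and Aconiti high (-1.32 ± 0.24). LCN2, lipocalin 2, rose at Aconiti high (1.09 ± 0.26). SERPINA1, higher at Aconiti high, and LBP, lower at Yijung medium, were under 1 CPM and are named after their values were seen.

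For interleukin 6 and STAT3 signalling, 12 of 13 passed. SOCS3, a feedback inhibitor of the pathway, went from 21.4 CPM in vehicle to 31.8 CPM at Yijung medium (0.58 ± 0.073), 30.5 CPM at Yijung high (0.52 ± 0.073) and 37.4 CPM at Aconiti high (0.81 ± 0.073). CEBPB, a transcription factor of the acute-phase response, rose at Aconiti high (1.34 ± 0.22) and Yijung high (0.70 ± 0.22). STAT3 fell by small amounts, at -0.15 ± 0.044, -0.18 ± 0.044 and -0.19 ± 0.044 log2 at Yijung medium, Yijung high and Aconiti high; the last is named after its value was seen. At Yijung medium, where 7.85% of all genes were called, 2 of the 12 rose, the other being IL6R (0.33 ± 0.11), and 1 fell, and at Yijung high, where 7.09% were, 2 rose and 1 fell. At Aconiti high, where 32.7% were, 3 rose, with LIF (0.49 ± 0.073) the other, and 3 fell, including JAK2 (-0.45 ± 0.16) and, named after its value was seen, JAK1 (-0.30 ± 0.10).

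Of 31 interferon-responsive genes 27 passed. At Yijung high, where 7.09% of all genes were called, 0 rose and 3 fell, among them STAT2 (-0.28 ± 0.085), a transducer of interferon signals, and PSMB9 (-0.63 ± 0.18), an immunoproteasome subunit. At Yijung medium, where 7.85% were called, 2 fell, among them STAT2 (-0.36 ± 0.085), and OAS1 (0.57 ± 0.10) rose. At Aconiti high 6 rose, among them PSMB8 (0.82 ± 0.18), IRF7 (0.69 ± 0.15) and IFI35 (0.60 ± 0.17), and OAS1 fell (-0.35 ± 0.11), where 32.7% of all genes were called. At Cimicifugae high 3 of the 27 rose, among them IFIT1 (0.68 ± 0.19) and IRF2 (0.33 ± 0.076), and 0 fell, where 1.96% of all genes were called.

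Of 28 genes for GPI anchor synthesis, which both CD55 and CD59 proteins need, 27 passed. At Yijung medium, where CD55 and CD59 rose and 7.85% of all genes were called, 0 of the 27 were called. At Yijung high, where 7.09% of all genes were called, 1 fell, PIGG (-0.24 ± 0.062). At Aconiti high, where 32.7% of all genes were called, 7 rose and 5 fell, among them PIGZ (0.89 ± 0.21), PIGV (0.43 ± 0.088), PGAP1 (-0.48 ± 0.18) and PIGN (-0.42 ± 0.14), with PIGA, PIGG and PIGM, which fell, named after their values were seen. The median log2 fold of the list was -0.01 at Yijung medium, 0.007 at Yijung high and 0.01 at Aconiti high.

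Some genes listed as markers of other cell types also moved in the same groups, all of them cultures of the A549 line. The 6 leukocyte markers summed to 6.34 to 8.54 CPM in vehicle and to 12.3 to 15.4 CPM at Yijung medium and 12.4 to 15.3 CPM at Yijung high, where CD68 rose (1.2 ± 0.24 and 1.03 ± 0.24). CD14, the other leukocyte marker that passed, was not called, at -0.82 ± 0.28 at Yijung medium and 0.48 ± 0.25 at Yijung high. CD3E was at 0. Fibroblast and endothelial markers summed to 32.5 to 33.2 CPM in vehicle, 12.8 to 13.2 CPM at Yijung medium, 15.0 to 16.7 CPM at Yijung high and 19.9 to 23.6 CPM at Aconiti high, where COL1A1 fell in all 3 (-1.37 ± 0.076, -1.09 ± 0.075 and -0.57 ± 0.073). LUM, under 1 CPM, was called in none of these, at 0.005 ± 0.37, 0.36 ± 0.40 and -0.09 ± 0.42. Epithelial CDH1 fell at both Yijung doses (-0.96 ± 0.13 and -1.01 ± 0.14), and the 6 epithelial markers summed to 7822 to 10200 CPM at the medium and 6996 to 9535 CPM at the high dose. Hepatocyte markers summed to at most 0.915 CPM in any library. Their part in the levels of the complement genes was not tested.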

How the data were processed

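The deposited table holds expected counts per gene, which the authors made with RSEM 1.3.3 after STAR 2.7.3a alignment to GRCh38, with Trim Galore 0.6.5 and FastQC 0.11.9, per the submitters' processing notes. The annotation release and strand setting are not given in the sources used here. Of 269 sample columns, 60 were matched by title and 209 belong to no sample used here. Positions and overlaps come from GENCODE 29, in which 57055 of 60675 identifiers were found.

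Expected counts were rounded to whole numbers; 9.37% were not whole. edgeR 4.0.16 in R 4.3.3 fitted 57 libraries in 19 groups (TMM scaling, default low-count filter, 38 residual degrees of freedom) and tested 33 comparisons by quasi-likelihood, with Benjamini-Hochberg adjustment over 17268 genes. Folds carry SEs, which for edgeR are the absolute log2 fold over the square root of the test's F value. Intervals use these SEs and the residual degrees of freedom, so they need not match the calls. CPM values use TMM over all 60 libraries. Bojungikgi was compared on log2(CPM + 1), without a test. The test was checked on simulated data.

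The members and lists were chosen with earlier results of these data known. Per list and comparison, up to 4 called genes of the largest fold at 1 CPM or more in whichever group was higher are named, and per member the 3 genes of highest correlation. Alternatives were RLE scaling, DESeq2 1.42.0, no low-count filter, the 6 libraries alone, a replicate block, the length balance as a covariate, mitochondrial genes removed, the fit without Citri medium replicate 1, and each library left out. Promoter windows are RefSeq's (GRCh38.p14). Some genes of the lists are counted with their list and not reported here by name.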

Additional observations from a re-analysis of the deposited data

How the results depend on the processing

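Of 32 calls of the complement genes over 33 comparisons, 25 were kept in every one of 14 alternatives per comparison; these include every Yijung and CD55 call except C1R at Yijung high against low, lost on the 6 libraries alone at an edgeR adjusted p of 0.0745. The only reversal was CD59 at Aconiti high against vehicle, at -0.13 with the length balance as a covariate; the cause was not tested. Counts of complement genes called changed by more than 1.5 times as follows. On the 6 libraries alone they were 1 in place of 0 at Cimicifugae high, 2 in place of 0 at Bupleuri high, 1 in place of 0 at Aconiti medium and at Banhasasim high against medium, 2 in place of 0 for Citri against Cimicifugae and 1 in place of 2 for Aconiti against Bupleuri. With DESeq2 they were 1 in place of 0 for Yijung high against medium and 2 in place of 1 for Banhasasim high against low. The length balance covariate gave 5 in place of 3 at Aconiti high, 1 in place of 0 at Aconiti medium, at Bupleuri high against low and against medium, at Yijung high against medium and at Banhasasim high against medium, and 2 in place of 1 at Aconiti high against medium and Banhasasim high against low. With no low-count filter they were 1 in place of 2 at Banhasasim high and for Aconiti against Bupleuri and 0 in place of 1 at Banhasasim high against low. Without Citri medium replicate 1 in the fit they were 2 in place of 1 at Aconiti high against medium and Banhasasim high against low, and 1 in place of 0 at Banhasasim high against medium.

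For the other complement genes, the 6 libraries alone gave 2 in place of 1 at Cimicifugae high, 0 in place of 1 at Cimicifugae high against low, 1 in place of 7 at Aconiti high against low, 1 in place of 3 against medium and 4 in place of 7 against Bupleuri. DESeq2 and the fit without Citri medium replicate 1 gave 2 in place of 1 at Cimicifugae high against low, and the latter 5 in place of 3 for Yijung against Banhasasim. The length covariate gave 5 in place of 1 at Cimicifugae high, 2 in place of 0 at Bupleuri high, 11 in place of 7 at Aconiti high, 4 in place of 1 at Aconiti medium, 9 in place of 3 at Yijung high, 10 in place of 6 at Yijung medium and 8 in place of 3 for Yijung against Banhasasim. Between doses it gave 2 in place of 1 at Cimicifugae high against low, 1 in place of 0 against medium, 3 and 1 in place of 0 for Bupleuri high against low and medium, 11 and 7 in place of 7 and 3 for Aconiti, and 6 and 2 in place of 3 and 0 for Yijung. The causes were not tested.

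Leaving out 1 library at a time gave these ranges of complement genes called: 0 to 1 at Citri medium and for Citri high against medium, 2 to 4 at Aconiti high, 0 to 1 at Banhasasim high and at Banhasasim high against low, 1 to 2 for Aconiti high against low, medium and Bupleuri high. For the other complement genes they were 0 to 3 at Citri medium, 5 to 8 at Aconiti high, 4 to 7 at Yijung medium, 0 to 2 for Citri high against medium, 1 to 2 for Cimicifugae high against low, 3 to 6 and 1 to 3 for Aconiti high against low and medium, 4 to 7 against Bupleuri, and 3 to 4 for Yijung high against low and against Banhasasim.

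The share of all genes called at Yijung high was 2.23% with no filter, 16.0% with the covariate and 4.0% on the 6 libraries; at Yijung medium it was 2.38% and 19.6% under the first pair. At Aconiti high it was 12.9% with no filter. At Cimicifugae high it was 0.374%, 8.35% and 12.2% under these 3, and 3.1% without Citri medium replicate 1. At Banhasasim high these were 0.0464%, 1.08% and 0.918%, with 0.319% by DESeq2 and 0.314% without Citri medium replicate 1. Shares of the other comparisons are not listed here. Libraries of the same replicate number did not deviate together: the correlations of their deviations ran from -0.195 to 0.349, and in 0 of 33 comparisons did all 3 pass 0.1. The replicate block changed 1 count by more than 1.5 times, other complement genes at Aconiti medium, to 2 from 1. In 3 comparisons every library correlated best with its own number. On log2(CPM + 0.25), CFB at Bojungikgi high was 0.87 and on log2(CPM + 2) it was 0.31. Counts of CFB and SERPING1 limit what can be seen of them.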
